A study of Homo sapiens with 4 samples.

Results

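LM2 and BM1 are 2 derivatives of MDA-MB-231, a human breast cancer line classed as triple-negative (negative for the estrogen and progesterone receptors and without excess HER2). The labels describe LM2 (4175) as the lung metastasis derivative and BM1 (1833) as the one from bone metastasis. The comparison described here is between their control cells, LM2 minus BM1, and uses 2 of the 4 libraries of the series, 1 per line. Both control lines carried a non-specific shRNA, stably expressed from a lentiviral vector. The remaining libraries, LM2 and BM1 with an shRNA against hnRNPM, are given beside the controls as other libraries of the same lines. The labels do not say whether a line is a clone or a pool, and in-vitro cultures hold none of the host tissue that metastatic growth takes place in. Of 20369 entries in the deposited table, 40 belong to 3 repeated gene IDs and were left out, and 13858 of the other 20329 genes had a mean of at least 1 FPKM over the 2 control libraries. FPKM is a fragment count scaled by gene length and by library depth. Each gene is described by its 2 levels and by the difference of log2(FPKM + 1), a scale that understates differences of weakly expressed genes. Each side is 1 library, so no difference was checked against replicate error and no test was run.

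Metastatic derivatives of a cell line are obtained by passing the parental cells through animals and recovering the cells that grew in a given organ. Genes described in such derivatives include secreted matrix proteins and growth factors in lung-seeking cells, and chemokine receptors, osteoclast-promoting cytokines and matrix proteases in bone-seeking cells. SPARC encodes a secreted protein that binds collagen, MMP2 a gelatin-degrading protease, CXCR4 the receptor of the chemokine CXCL12, and CCL2 a chemokine that attracts monocytes. These 4 genes were taken as markers of the lines. The question of the comparison is how the derivatives differ before hnRNPM is touched.

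Depth, read from the steps between low values, was near 31.2 M fragments in the BM1 control and 41.5 M in the LM2 control library (M for mega), if the smallest step of the values is 1 fragment. At this depth 3 fragments on a transcript of 1 kilobase correspond to 0.0961 FPKM in BM1 against 0.0723 FPKM in LM2, and levels near or under these rest on very few fragments. This limit covers counting error only. Genes of the mitochondrial genome took 9.31% and 8.80% of the FPKM sum. HNRNPM was at 171 FPKM in BM1 control and 132 FPKM in LM2 control cells, against 28.4 and 20.3 FPKM in the knockdown libraries, so the gene was lower in the library labelled as knockdown in each line. The keratin and vimentin genes known from MDA-MB-231 were detected in both lines, with KRT8 at 398 and 485 FPKM and VIM at 2354 and 1575 FPKM in BM1 and LM2. Among marker lists of other cell types, 4 of 12 leukocyte genes were in the table, with sums of 25.8 and 12.4 FPKM in BM1 and LM2, most of it CD68 (23.5 and 9.50 FPKM). For endothelial genes the sums were 1.88 and 0.898 FPKM over 4 of 10 genes, most of it KDR (1.502 and 0.6398 FPKM). VWF was at 0.0434 and 0.0300 FPKM. For osteoblast genes the sums were 3.95 and 7.85 FPKM over 3 of 8. For fibroblast genes they were 4.67 and 31.0 FPKM over 7 of 11, of which COL1A1 made 1.94 and 29.2 FPKM. Among the other fibroblast genes, PDGFRB was at 1.37 and 0.699 FPKM and ACTA2 at 1.04 and 0.871 FPKM in the same order. Near the floor were THY1 at 0.0843 and 0.0763, COL3A1 at 0.0288 and 0.0688 and LUM at 0.0213 and 0.0239 FPKM. The part of these cell types in the results was not tested.

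The 4 markers separated the lines in both pairs of libraries. They were chosen with earlier results of these data known, so this separation is not independent evidence. SPARC (chromosome 5, 151040657 to 151066726, GRCh37 per the submitters' processing notes) was at 2.13 FPKM in the BM1 control and 248 FPKM in the LM2 control, a 116-fold ratio and a difference of 6.31. MMP2 (chromosome 16, 55423612 to 55540603) was at 0.0171 FPKM in BM1, below the level of 3 fragments, and at 4.07 FPKM in LM2. CCL2 (chromosome 17, 32582237 to 32584222) went the other way, from 86.3 FPKM in BM1 to 0.127 FPKM in LM2 (difference -6.28). CXCR4 (chromosome 2, 136871919 to 136875735) was at 24.7 FPKM in BM1 against 0.0698 FPKM in LM2 (-4.59). In the knockdown libraries SPARC was at 1.31 and 651 FPKM, MMP2 at 0.0469 and 13.1, CCL2 at 92.0 and 0.756, and CXCR4 at 10.8 and 0.127 FPKM in BM1 and LM2. Each marker was thus on the same side between the knockdowns as between the controls. This was common among all genes at least 4-fold apart between the controls. Of those, 8.60% of the higher and 10.9% of the lower genes in LM2 had the opposite sign between the knockdowns. None of the 4 overlaps another gene of the table.

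**Figure D1:**
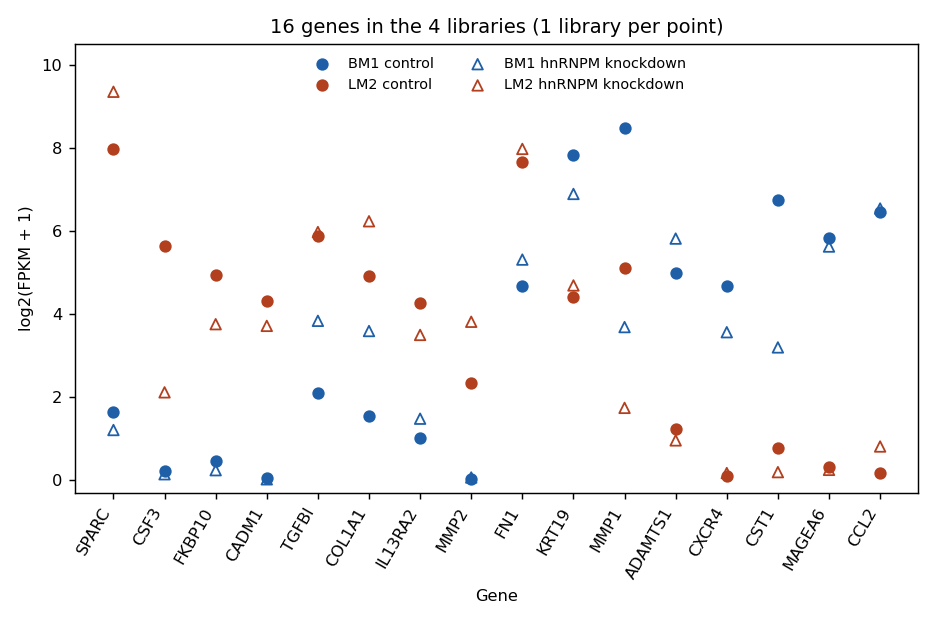
Levels of 16 genes, as log2(FPKM + 1) on the y axis, in the BM1 and LM2 control libraries (filled circles) and in the corresponding knockdown libraries (open triangles), 1 library per point. The first 9 genes are higher in LM2 and the last 7 higher in BM1, and for SPARC the LM2 controls stand at 248 FPKM against 2.13 FPKM in BM1.

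The bases upstream of the start site are shown for SPARC, the protein-coding gene with the largest difference, and for MAGEA6 and MAGEB2, a pair of cancer-testis genes on the X chromosome that went in opposite directions between the lines. Cancer-testis genes are silent in most adult tissues outside the testis, and in tumours their promoters are known to be controlled by methylation of CpG sites. Capitals mark each CG dinucleotide in the 250 bases before the start, given 5′ to 3′ on the gene's strand. The sequences are from RefSeq on GRCh38.p14, a build other than that of the table, and 73 of the 109 genes named by rule had an entry.
SPARC, chr5:151686916-151687165, minus strand: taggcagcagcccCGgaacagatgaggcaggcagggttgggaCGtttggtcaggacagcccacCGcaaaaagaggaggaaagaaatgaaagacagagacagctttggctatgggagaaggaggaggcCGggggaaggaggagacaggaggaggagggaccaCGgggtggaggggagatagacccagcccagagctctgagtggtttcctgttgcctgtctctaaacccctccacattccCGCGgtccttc
MAGEA6, chrX:152769690-152769939, minus strand: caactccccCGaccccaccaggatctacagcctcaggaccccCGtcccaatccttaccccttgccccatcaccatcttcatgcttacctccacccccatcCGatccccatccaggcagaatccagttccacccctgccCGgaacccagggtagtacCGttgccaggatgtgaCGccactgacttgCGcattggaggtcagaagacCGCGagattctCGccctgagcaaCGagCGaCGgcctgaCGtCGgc
MAGEB2, chrX:30215313-30215562, plus strand: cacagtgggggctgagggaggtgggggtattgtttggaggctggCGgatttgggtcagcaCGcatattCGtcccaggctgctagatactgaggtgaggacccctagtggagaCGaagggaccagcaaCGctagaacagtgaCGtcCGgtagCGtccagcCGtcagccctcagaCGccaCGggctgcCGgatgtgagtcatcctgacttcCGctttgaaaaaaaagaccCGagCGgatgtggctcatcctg
The SPARC stretch holds 7 CG dinucleotides, a number reached or passed by 58.9% of the 35116 promoters of the table. MAGEA6 and MAGEB2 hold 15 each, which 42.9% of promoters reach. The stretch of MAGEA3 is the same as that of MAGEA6 at 250 of 250 positions, whereas MAGEB2 matches it at 65 of 250 positions without gaps. MAGEA3 and MAGEA6 are close copies, so fragments may have been split between them, and their separate values are uncertain. Methylation was not measured here.

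Across all tested genes, 1726 of 13858 (12.5%) lay at least 2-fold apart between the control libraries, 973 higher in LM2 (7.02%) and 753 lower (5.43%). These shares are the background for the list counts given below. At least 4-fold apart were 194 genes (1.4%), 93 higher (0.671%) and 101 lower (0.729%) in LM2. The median difference was 0.02 and the median absolute difference 0.41. The share at least 2-fold apart was 13.1% among genes with a mean of 1 to 5 FPKM and 10.64% among those over 100 FPKM, so large differences were not limited to low genes. With a pseudocount of 0.1 in place of 1, 1522 genes were higher and 1063 lower. GC content and transcript length together accounted for 10.2% of the variance of the difference across genes, and with that trend removed 775 genes were higher and 632 lower.

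**Figure D2:**
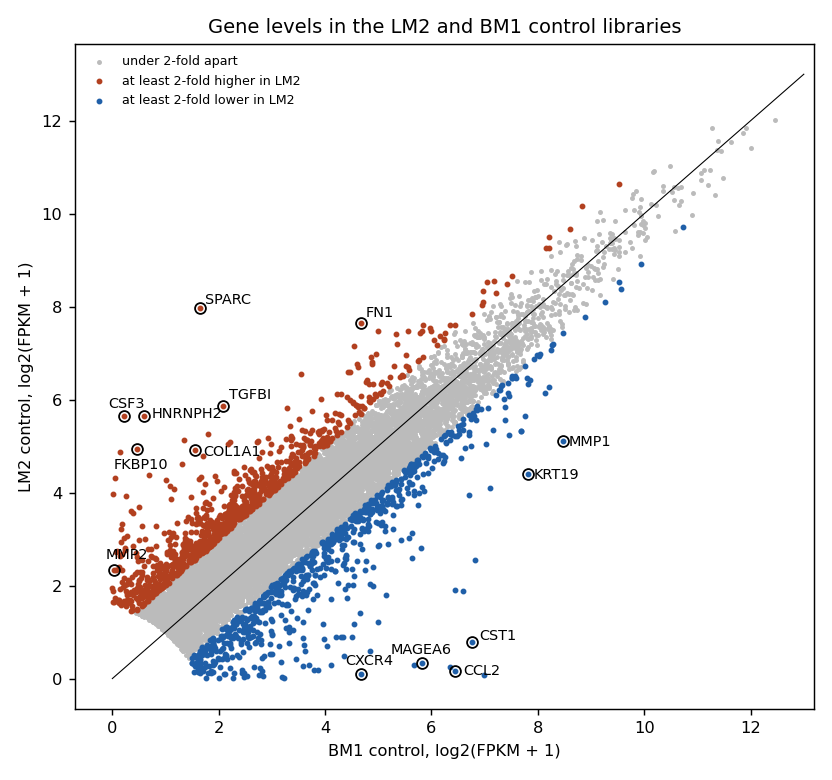
Each point is 1 of 13858 tested genes, with log2(FPKM + 1) in the BM1 control library on the x axis and in the LM2 control library on the y axis. Red points are the 973 genes at least 2-fold higher in LM2 and blue points the 753 lower. SPARC and CCL2 lie farthest from the diagonal among the labelled genes.

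The knockdown libraries, which share no library with the controls, gave a second look at each line. There 593 of the 13858 genes (4.28%) were at least 2-fold higher in LM2 and 595 (4.29%) lower, 8.57% in all. Of the 973 genes higher in the LM2 control, 273 (28.1%) were also at least 2-fold higher in the LM2 knockdown, and 187 (19.2%) had the opposite sign. Of the 753 lower genes, 232 (30.8%) were also called lower and 96 (12.7%) had the opposite sign. Among the genes 4-fold apart the shares called the same way were larger, 62 of 93 (66.7%) and 70 of 101 (69.3%). The genes called in both pairs but in opposite ways numbered 30, and 25 of them (83.3%) overlap another listed gene, as do 55.4% of all tested genes. HNRNPH2 is the largest of these: it was at 0.505 FPKM in BM1 control and 49.1 FPKM in LM2 control, and at 49.9 and 7.35 FPKM in the knockdowns, and it shares its strand with the readthrough model RPL36A-HNRNPH2.

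Most fibrillar, microfibrillar and basement membrane collagens tested were higher in LM2. Of 16 tested collagen genes 9 were at least 2-fold higher in LM2 and none lower, with a median difference of 1.21 against 0.02 over all genes (7.02% of all genes were higher). COL1A1, which encodes the main chain of fibrillar type I collagen, was at 1.94 FPKM in BM1 against 29.2 FPKM in LM2, a 15.03-fold ratio. The chains of the microfibrillar type VI collagen were all higher in LM2. COL6A1 was at 53.9 and 171 FPKM, COL6A2 at 27.3 and 65.3 FPKM, and COL6A3 at 2.28 and 8.83 FPKM in BM1 and LM2. Of the basement membrane type IV chains, COL4A1 was at 4.11 and 15.5 FPKM and COL4A2 at 14.7 and 34.8 FPKM, and these genes overlap on opposite strands. COL18A1, the source of endostatin, was 3.94-fold higher and COL7A1, the anchoring fibril collagen, 5.51-fold higher. COL8A1 (86.1 and 45.1 FPKM, difference -0.92) and COL13A1 (72.6 and 94.4 FPKM) lay within 2-fold. Between the knockdowns 7 of the 16 were called higher in LM2 and none lower. Without the filter on low genes the collagen median was 0.37, since 7 of the 23 collagen genes in the table lay under 1 FPKM.

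Among collagen-modifying enzymes the difference was carried by few genes. FKBP10, an endoplasmic reticulum prolyl isomerase that acts on procollagen, was at 0.382 FPKM in BM1 against 29.6 FPKM in LM2, and at 0.182 and 12.5 FPKM in the knockdowns. LOX, which cross-links collagen, was at 3.64 and 12.5 FPKM in the controls and at 6.43 and 12.7 FPKM in the knockdowns (difference 0.88). PCOLCE, an enhancer of procollagen cleavage, was lower in LM2, at 5.34 and 1.36 FPKM. Of the 17 tested, 2 were higher and 1 lower, and the median was 0.28.

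Glycoproteins of the matrix went both ways. Of 20 tested, 9 were higher and 2 lower in LM2, with a median of 0.50. TGFBI, a matrix protein induced by TGF-beta, was at 3.25 and 57.4 FPKM in BM1 and LM2, a 17.6-fold ratio. FN1, which encodes fibronectin, was at 24.4 and 201 FPKM (8.23-fold), and it was at 38.7 and 250.5 FPKM in the knockdowns. The laminin chains LAMA4, LAMB1 and LAMC1 were higher in LM2 (9.14, 31.7 and 69.0 FPKM against 1.83, 11.02 and 29.8 FPKM). LAMB3, the beta chain of the epithelial laminin-332, was lower, at 192 FPKM in BM1 and 87.8 FPKM in LM2. CTGF, a matricellular protein and YAP target, was also lower, at 231 and 84.3 FPKM, although the knockdown libraries held 114 and 103 FPKM. THBS1 was at 39.6 and 170 FPKM in the controls, but at 324 and 472 FPKM in the knockdowns (difference 0.54). It overlaps other listed genes on both strands.

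Proteases and their inhibitors showed no common direction. Of 18 tested, 5 were higher and 3 lower in LM2, with a median of 0.20. MMP1, the interstitial collagenase, was at 355 FPKM in BM1 against 33.3 FPKM in LM2, and at 11.9 and 2.34 FPKM in the knockdowns. ADAMTS1, a proteoglycan-cleaving protease, was at 30.8 and 1.34 FPKM in the controls and 55.3 and 0.944 FPKM in the knockdowns. PLAU, which encodes urokinase, was 2.12-fold higher in LM2 (108 and 228 FPKM). TIMP2 was at 59.8 and 60.8 FPKM, and MMP14, which activates pro-MMP2 at the cell surface, at 105 and 92.7 FPKM.

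Genes known from lung and bone metastasis of breast cancer were listed separately. Cells of this parental line were among those used to define them, so the direction of these lists is not independent evidence. Of 17 tested lung metastasis genes, 10 were at least 2-fold higher in LM2 and 2 lower, with a median of 1.60. Besides SPARC and MMP2, the list held IL13RA2, a decoy receptor of interleukin-13 (1.02 and 18.3 FPKM in BM1 and LM2), EREG, an EGF receptor ligand (1.24 and 15.8 FPKM), and ANGPTL4, a secreted lipase inhibitor (1.32 and 9.11 FPKM). TNC was at 11.7 and 27.8 FPKM and CXCL1 at 1.61 and 9.55 FPKM. The exceptions were MMP1 and NEDD9, a docking protein of focal adhesions (3.88 and 1.30 FPKM). Between the knockdowns the same 17 genes had 6 called higher and 5 lower in LM2, with a median of -0.18. ID1, an inhibitor of helix-loop-helix factors, was at 9.37 and 34.97 FPKM in the controls but at 162 and 64.8 FPKM in the knockdowns. KYNU, a kynurenine pathway enzyme, went from 0.769 and 4.98 FPKM to 7.32 and 0.961 FPKM.

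Of 10 tested bone metastasis genes, 4 were lower in LM2 and none higher, with a median of -0.96. The 4 were CXCR4, ADAMTS1, MMP1 and CTGF. IL11, an osteoclast-promoting cytokine, was at 108 FPKM in BM1 against 54.1 FPKM in LM2, just inside 2-fold (-0.98), and FST, the activin antagonist follistatin, at 51.6 and 26.4 FPKM (-0.94). SRGN, a secretory granule proteoglycan, was higher in LM2 by less than 2-fold, at 158 and 258 FPKM. Between the knockdowns 6 of the 10 were lower in LM2 and none higher, with a median of -1.34, and IL11 was at 65.6 and 8.76 FPKM.

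Mesenchymal genes were higher in LM2 in most but not all cases. Of 16 tested, 10 were higher and 1 lower, with a median of 1.48. Most of the 10 are genes also counted in the matrix lists above: SPARC, MMP2, TGFBI, FN1, COL1A1, COL5A1 and COL6A1. TAGLN, an actin-binding protein of contractile cells, was at 2.16 and 19.3 FPKM in BM1 and LM2. The transcription factors SNAI2 (6.71 and 16.8 FPKM) and ZEB2 (0.961 and 4.14 FPKM) were higher as well. CDH11, a mesenchymal cadherin known from osteoblasts, was lower in LM2, at 14.5 and 1.24 FPKM, and it shares its strand with another listed gene. CDH2, which encodes N-cadherin, was near the floor in both controls, at 0.111 and 0.0945 FPKM. VIM differed by -0.58 between the controls and by 0.63 between the knockdowns. S100A4 (480 and 266 FPKM, -0.85) and AXL (374 and 311 FPKM, -0.26) were lower in the LM2 control within 2-fold, as was PDGFRB (-0.48). The knockdown differences of S100A4, AXL and PDGFRB were 0.42, 0.24 and -0.11. Between the knockdowns 9 of the 16 were higher and 1 lower.

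Epithelial genes were divided. Of 11 tested, 1 was higher in LM2 and 3 lower, with a median of -0.14. KRT19, a simple epithelial keratin, was at 225 FPKM in BM1 against 20.1 FPKM in LM2 (11.2-fold lower in LM2). KRT7, another simple epithelial keratin, was at 22.3 and 142 FPKM, the other way, and overlaps further keratin genes on both strands. The tight junction genes CLDN4 and OCLN were lower in LM2, CLDN4 at 22.2 and 1.26 FPKM and OCLN at 6.37 and 2.46 FPKM. In the knockdowns both were within 2-fold, CLDN4 at 5.48 and 2.85 FPKM and OCLN at 6.75 and 3.54 FPKM. There 1 of the 11 genes was higher in LM2 and 1 lower. CDH1, which encodes E-cadherin, was under 0.5 FPKM in both controls (0.489 and 0.170). ESRP1, an epithelial splicing factor, was at 0.288 FPKM in BM1 against 0.0134 FPKM in LM2, below the filter. Of 8 luminal breast genes, KRT19 and TFF3 (8.03 and 0.287 FPKM) were lower in LM2 and none was higher. ERBB2, GATA3 and XBP1 were at 21.9 and 21.3, 2.84 and 3.33, and 41.6 and 41.8 FPKM. Among 5 tested basal breast genes KRT17 was higher, at 0.530 and 3.06 FPKM, and in the knockdowns it was at 15.02 and 12.8 FPKM.

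**Figure D3:**
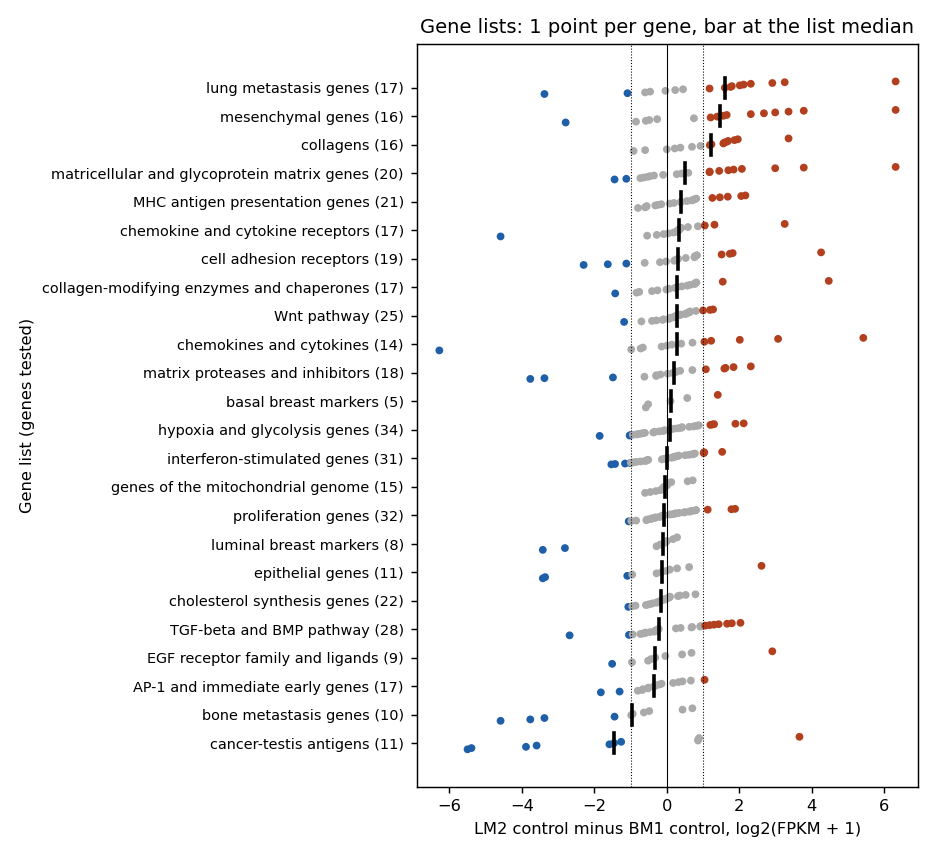
LM2 control minus BM1 control difference on the log2(FPKM + 1) scale (x axis) for the tested genes of each list with at least 5 tested genes (y axis, with the number tested). Points are genes, bars are list medians and dotted lines mark 2-fold. Lung metastasis genes have the highest median (1.60) and cancer-testis antigens the lowest (-1.45).

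Of 14 tested chemokine and cytokine genes, 5 were higher in LM2 and 1, CCL2, was lower, with a median of 0.27. The shares over all tested genes were 7.02% higher and 5.43% lower. CSF3, which encodes the granulocyte growth factor G-CSF, was at 0.162 FPKM in BM1 and 48.8 FPKM in LM2. In the knockdown libraries it was at 0.105 and 3.33 FPKM. The pro-inflammatory IL1B was at 2.27 and 26.5 FPKM in the controls, CXCL1 at 1.61 and 9.55 FPKM, IL6 at 3.28 and 9.001 FPKM, and CXCL2 at 0.812 and 2.72 FPKM. Of the 32 genes of the list, 4 were below the filter and a further 14 are not analysed here. Between the knockdowns IL6 turned, at 13.9 and 8.44 FPKM. Of 17 tested receptors of chemokines and cytokines, 3 were higher in LM2 (IL13RA2, IL6ST at 12.1 and 31.7 FPKM, and TNFRSF11B at 1.94 and 5.08 FPKM), and 1, CXCR4, was lower. TNFRSF11B lay the other way between the knockdowns, at 14.1 and 10.4 FPKM.

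Of 19 tested adhesion receptors 4 were higher in LM2 and 3 lower, with a median of 0.31, beside 7.02% and 5.43% of all tested genes. CADM1, an immunoglobulin-type adhesion molecule, was at 0.0369 FPKM in BM1 against 18.8 FPKM in LM2, with 0.0153 and 12.1 FPKM in the knockdowns. L1CAM, a neural adhesion molecule, was at 15.4 and 45.9 FPKM. Of the integrins, ITGB4, the laminin-binding beta 4 chain, was 3.66-fold higher in LM2 (18.7 and 68.5 FPKM), and ITGAV was at 3.85 and 15.2 FPKM. Between the knockdowns ITGB4 and ITGAV differed by 2.42 and 0.60. ITGB2, the beta chain known from leukocytes, was 5.51-fold lower in LM2 (35.3 and 6.39 FPKM), and it overlaps listed genes on both strands. The leukocyte markers CD68 (23.5 and 9.50 FPKM) and CD14 (1.62 and 1.97 FPKM) stood beside it, and their part was not tested.

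Cancer-testis antigens had the lowest median of the lists with at least 5 tested genes. Of 11 tested, 7 were lower in LM2 and 1 higher, with a median of -1.45. MAGEA6 was at 55.6 FPKM in BM1 against 0.254 FPKM in LM2, and MAGEA3 at 12.8 and 0.144 FPKM. COX7B2, a testis-expressed cytochrome oxidase subunit gene on chromosome 4, was at 50.2 and 0.222 FPKM, and SSX1 at 19.5 and 0.390 FPKM. MAGEB2 was the exception, at 0.199 FPKM in BM1 and 14.2 FPKM in LM2. In the knockdowns MAGEA6 was at 48.3 and 0.189 FPKM and MAGEB2 at 0.572 and 27.7 FPKM, each on the same side as between the controls. XAGE1A (27.1 and 51.2 FPKM) was within 2-fold. Of the 39 list entries, 1 was below the filter and a further 27 are not analysed here.

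Antigen presentation genes were tested in full, 21 of 21, with 5 higher in LM2 and none lower (median 0.40). The 5 were all of MHC class II: CD74, the invariant chain, at 23.2 and 108 FPKM, HLA-DRA at 6.07 and 28.4 FPKM, and HLA-DRB1 at 1.78 and 7.93, HLA-DPA1 at 0.980 and 3.73 and HLA-DPB1 at 0.594 and 3.40 FPKM. Their transactivator CIITA was at 1.76 and 3.46 FPKM, within 2-fold. Of the class I heavy chain genes, HLA-B was at 206 and 268 FPKM and HLA-C at 88.7 and 58.2 FPKM. In the knockdowns HLA-DRA was at 9.24 and 10.3 FPKM and CD74 at 15.9 and 50.7 FPKM, and the HLA-DRB1, HLA-DPA1 and HLA-DPB1 differences were -0.06, -0.77 and -0.35. HLA genes are similar to one another, so their separate values are uncertain.

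In the TGF-beta and BMP pathway 7 of 28 genes were higher and 2 lower in LM2, with a median of -0.23. Over all tested genes 7.02% were higher and 5.43% lower, and between the knockdowns 4.28% and 4.29%. INHBB, an activin subunit, was at 20.2 and 2.30 FPKM, and the targets ID1 and ID3 were higher in LM2 (ID3 at 2.39 and 12.9 FPKM). Both lay the other way between the knockdowns, ID3 at 108 and 61.6 FPKM, and there 2 of the 28 genes were higher and 4 lower. SKIL, a feedback inhibitor of SMAD factors, was at 0.702 and 4.39 FPKM in the controls and at 8.05 and 12.5 FPKM in the knockdowns (difference 0.58). Of 25 Wnt pathway genes 3 were higher and 1 lower, led by LGR4, an R-spondin receptor (4.39 and 12.1 FPKM). Between the knockdowns LGR4 was at 15.2 and 14.7 FPKM, and none of the 25 was called in either direction. Of 9 EGF receptor family and ligand genes, EREG was higher and NRG1, which encodes neuregulin, was lower (37.5 and 12.5 FPKM). EGFR itself was at 51.0 and 35.4 FPKM. Of 17 AP-1 and immediate early genes 1 was higher and 2 lower, among them DUSP6, an ERK phosphatase (93.2 and 25.7 FPKM). Of 31 interferon-stimulated genes 4 were higher and 4 lower, with a median of 0.01.

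The medians of the metabolic and growth lists lay between -0.16 and 0.08. For reference, 7.02% of all tested genes were higher in LM2 and 5.43% lower. Of 34 hypoxia and glycolysis genes 5 were higher and 3 lower in LM2, with a median of 0.08. Both of these shares were larger than those over all genes. HK2, a hexokinase isoform of many tumours, was at 33.9 and 8.67 FPKM, and CA9, the hypoxia-induced carbonic anhydrase, at 0.663 and 5.18 FPKM. Of 32 proliferation genes 3 were higher and 1 lower (median -0.08). CENPF, a kinetochore protein, was at 8.66 and 34.6 FPKM, and CDC20, an activator of the anaphase-promoting complex, at 243 and 117 FPKM. Between the knockdowns CENPF and CDC20 differed by 0.51 and -0.69. Of 22 cholesterol synthesis genes none was higher and 1, MVK, was lower (30.6 and 14.1 FPKM). None of 15 genes of the mitochondrial genome lay 2-fold apart.

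Genes near silent in either control were few. Under 0.1 FPKM in BM1 and at least 5 FPKM in LM2 were 4 genes, 2 of them protein-coding (CADM1 and ACTG2, at 0.0620 and 5.74 FPKM). The others, MIR4707 and SNORD35B, are small RNA genes that each overlap another listed gene on the same strand. Under 0.1 FPKM in LM2 and at least 5 FPKM in BM1 were 6 genes, 5 of them protein-coding. The highest was CTD-2354A18.1, a noncoding transcript on chromosome 18, at 126.5 FPKM in BM1 against 0.0620 FPKM in LM2, and at 166 and 0.0708 FPKM in the knockdowns. The others were CXCR4, KALRN (6.13 and 0.0376 FPKM), and PHKG1, SAMD11 and TMEM256-PLSCR3, and the last 3 overlap other listed genes. Of these 10 genes, CADM1, CTD-2354A18.1 and CXCR4 stayed under 1 FPKM in the same line and over 5 FPKM in the other in the knockdown libraries.

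Of the 12 protein-coding genes with the largest difference on each side, most are named above. The remaining ones on the LM2 side were MAMDC2 (1.56 and 34.1 FPKM), LCP1, the actin-bundling L-plastin (0.618 and 19.9 FPKM), DLC1, a GTPase-activating protein (2.46 and 37.6 FPKM), and AKAP12, a kinase scaffold (1.47 and 23.5 FPKM). On the BM1 side they were CST1, CST2, SPANXA1 and SPANXA2, given at the end, SLAMF7, an immune receptor (27.7 and 0.506 FPKM), and FAM24B (16.4 and 0.231 FPKM), which overlaps CUZD1 on the same strand. All of these lay on the same side by at least 2-fold in the knockdown libraries.

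The share of genes apart between the lines differed by chromosome. On chromosome 9, 108 of 525 tested genes (20.6%) were at least 2-fold higher in LM2, against 7.02% of all genes, and 10 (1.90%) were lower. The median difference there was 0.57, and 80.0% of the genes were above 0. Chromosome 15 had 13.1% higher and a median of 0.31. The lowest nuclear medians with more than 2 tested genes were on chromosome 18 (-0.29, with 10.8% of 204 genes lower) and chromosome 6 (-0.18, with 12.01% of 708 genes lower, against 5.43% of all genes). With the GC and length trend taken out, the medians of chromosomes 9, 15, 18 and 6 were 0.55, 0.26, -0.36 and -0.20. Between the knockdowns they were 0.48, 0.15, -0.50 and -0.26, on the same side for each. Chromosomes 4 and 13, with medians of 0.26 and 0.26 between the controls, were at -6.9e-05 and -0.05 between the knockdowns.

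**Figure D4:**
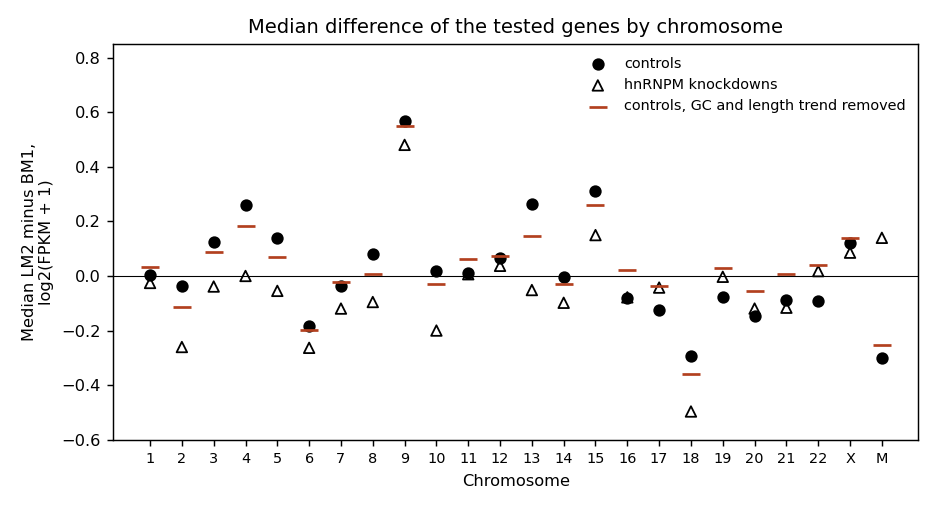
Median LM2 minus BM1 difference of the tested genes on each chromosome (x axis; M is the mitochondrial genome), on the log2(FPKM + 1) scale (y axis), between controls (circles), between knockdowns (triangles) and between controls with the GC and length trend removed (bars). Chromosome Y, with 2 tested genes, is not drawn. Chromosome 9 stands highest, at 0.57 and 0.48 in the 2 pairs of libraries.

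Within chromosomes 6 and 9 the differences were not even, and uneven stretches were also seen on other chromosomes. In consecutive windows of 40 tested genes, 333 in all, medians ranged from -0.78 to 1.04, with the 5th percentile at -0.51 and the 95th at 0.62. On chromosome 9 the first 4 windows (160 genes, up to position 74623052) had a median of 0.13 with 8 genes higher and 5 lower. The following 9 windows (360 genes, 74966341 to 140473387, GRCh37) had a median of 0.71 with 100 genes higher (27.8%) and 5 lower, and 321 of the 360 genes were above 0. The matrix genes TNC and COL5A1 lie in that stretch, as does ASS1, the argininosuccinate synthase of arginine synthesis (3.63 and 33.1 FPKM). On chromosome 6 the first 10 windows (400 genes, 291630 to 47594999) had a median of -0.55 with 78 genes lower (19.5%) and 11 higher. The next 7 windows (280 genes) had a median of 0.27 with 6 lower and 21 higher, but of -0.09 between the knockdowns and 0.10 with the GC and length trend taken out. HLA-DRA, HLA-DRB1, HLA-DPA1 and HLA-DPB1 lie in the first of these stretches and were higher in the LM2 control. On chromosome 15 the last full window (40 genes, POLG onward, 89859536 to 99675798) had the highest median of all, 1.04, with 22 genes at least 2-fold higher and 39 above 0. The same windows in the knockdown libraries had medians of 0.66 on chromosome 9, -0.41 on chromosome 6 and 0.96 on chromosome 15. Chromosome 19, by comparison, had medians of 0.36 in window 4, -0.60 in window 5 and 0.36 in window 12, and 0.46, -0.34 and 0.20 between the knockdowns. On chromosome 1 the medians ranged from -0.71 in window 12 to 0.87 in window 29, and these windows were at -0.42 and 0.33 between the knockdowns. All these stretches were chosen after their values were seen.

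**Figure D5:**
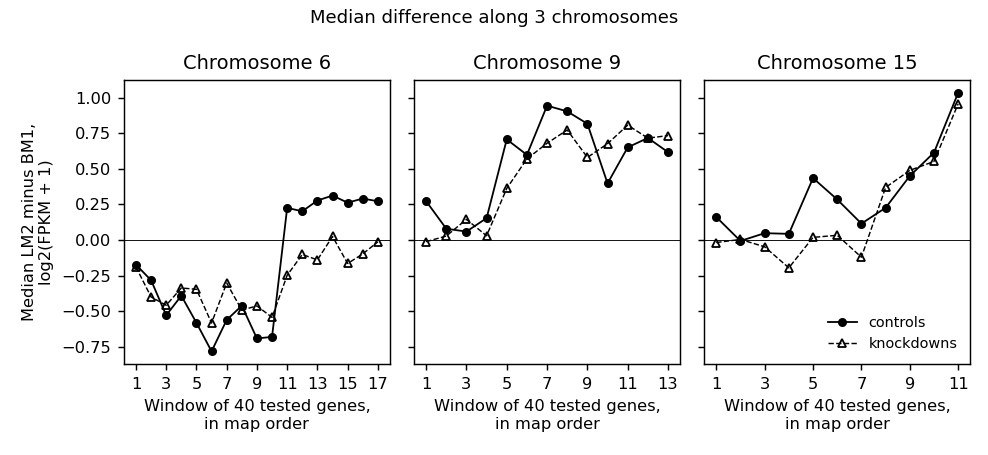
Median LM2 minus BM1 difference, log2(FPKM + 1) (y axis), in consecutive windows of 40 tested genes in map order (x axis) on chromosomes 6, 9 and 15, for controls (filled circles) and knockdowns (open triangles). The level changes after window 10 on chromosome 6 (from -0.68 to 0.23 between controls) and after window 4 on chromosome 9 (from 0.15 to 0.71).

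Runs of at least 4 neighbouring protein-coding genes at least 2-fold apart in the same direction were found at 19 places. The longest had 8 genes, all higher in LM2, on chromosome 15 (100105622 to 101792137): MEF2A, LYSMD4, ADAMTS17, LINS1, ASB7, ALDH1A3, LRRK1 and CHSY1, with differences of 1.01 to 2.08 in the controls and 0.49 to 1.17 in the knockdowns. A run of 5 on chromosome 21 (46825052 to 47552763) held 3 of the 9 collagen genes higher in LM2, COL18A1, COL6A1 and COL6A2, with SLC19A1 and PCBP3. MMP2 stood in a run of 4 on chromosome 16 with IRX3, LPCAT2 and GNAO1. On the X chromosome MAGEA6, MAGEA12, CSAG1 and MAGEA3 formed a run of 4 lower in LM2 (-5.50 to -1.45), and SPANXC, SPANXA1, SPANXA2, SPANXD and MAGEC1 a run of 5 (-4.72 to -1.26). The common direction within a run is fixed by how runs were chosen.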

How the data were processed

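RNA of 4 cultures was sequenced, 1 library each, from stranded paired-end libraries of polyadenylated RNA, per the labels' protocols. The authors deposited 1 table of FPKM values with 1 column per library. The submitters' processing notes name STAR 2.5.3a, Cuffdiff 2.2.1 and GRCh37, without their roles. The sources used here do not give the annotation release, the scaling or the use of strand, so genes that overlap on opposite strands may share fragments. All entries of repeated gene IDs were dropped.

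Differences are log2(FPKM + 1) in LM2 control minus BM1 control, for genes with a mean of at least 1 FPKM in both together, computed with Python 3.11.15, numpy 2.4.6 and pandas 2.3.3. A gene was called at a difference of at least 1 (2-fold). The calling step was run on simulated data with 4-fold changes in genes of at least 5 FPKM and counting noise only. That run checks the code and says nothing on variation between libraries or on weaker genes. Gene type, transcript length and GC content came from GENCODE 29 by gene ID (98.5% of tested genes matched), with no coordinates taken from it. Depth was read from the steps of FPKM times length in 1623 low genes with 1 transcript: 45.0% (BM1 control) and 36.6% (LM2 control) of values of at most 10 steps were whole multiples to a tolerance of 0.02, compared with 2.46% and 3.02% at a typical other step. Most values were not whole, so no count test was run.

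Named genes are the markers and HNRNPM, the 12 protein-coding genes with the largest difference each way, the 4 largest of each of 28 lists, the genes of the longest runs of neighbours, and up to 6 near-silent genes each way, a few of which are not reported here; others were chosen after their values were seen. The members and lists were chosen with earlier results of these data known. Alternatives were other pseudocounts, filters, scalings and fold rules, and the knockdown libraries in place of the controls; removal of the GC and length trend and of overlapping genes was added after seeing the data.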

Additional observations from a re-analysis of the deposited data

Results flagged for a closer look

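For 3 of the genes named by rule, and for KYNU, which was named after its values were seen, the control pair and the knockdown pair lay at least 2-fold apart in opposite directions, and this difference between the pairs was not tested. HNRNPH2 was higher in LM2 by 5.06 (log2) between controls and lower by -2.61 between knockdowns. ID1 was at 1.79 and -1.31, TMEM256-PLSCR3 at -3.17 and 1.45, and KYNU at 1.76 and -2.08. HNRNPH2 and TMEM256-PLSCR3 share their strand with other listed genes, and ID1 and KYNU overlap none.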

How the results depend on the processing

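No paired analysis was possible because each line has 1 control library and the result comes from no test. For the same reason no library could be left out. The counts of 973 higher and 753 lower genes became 2638 and 2094 at 1.5-fold, 93 and 101 at 4-fold, 475 and 368 among genes that overlap no other, 593 and 595 with the knockdown libraries, and 612 higher with a filter at 5 FPKM. A pseudocount of 0.1 gave 1522 higher genes. Scaling to the same sum without mitochondrial genes moved the balance to 1104 higher and 659 lower, 62.6% higher against 56.4%. With size factors it was 924 and 800, and with quantile normalization 843 and 791.

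The share of chromosome 9 genes higher in LM2 was 28.4% with a pseudocount of 0.1, 25.5% with 0.5, 14.2% without the filter and 16.6% in the knockdowns. For chromosome 6 genes lower in LM2 it was 14.97% with a pseudocount of 0.1, 8.29% without the filter, 7.49% in the knockdowns and 8.38% without the GC and length trend. For chromosome 15 genes higher in LM2 it was 18.6%, 8.80% and 8.10% in the first 3 of these settings. The counts over all genes also moved with the setting. With a pseudocount of 0.1, 1522 of 13858 genes were higher and 1063 lower, and with 0.5, 1237 were higher. Without the filter 1008 of 20329 were higher and 783 lower, and in the knockdowns 4.28% and 4.29% of 13858. Without the GC and length trend 632 of 13647 were lower. Without the filter, which adds low genes, the medians of mesenchymal genes and collagens were 0.76 and 0.37, and with a filter at 5 FPKM the matricellular median was 1.18. In the knockdowns the medians were -0.18 for lung metastasis genes, -1.34 for bone metastasis genes, 0.91 for collagens and -0.66 for cancer-testis antigens, and 9 genes were near silent in BM1; the cause was not tested.

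Of the 109 genes named by rule, 98 kept their direction in the knockdown libraries, 27 of them no longer 2-fold apart, and 11 were reversed: HNRNPH2 (-2.61), ID1 (-1.31), TMEM256-PLSCR3 (1.45), ID3 (-0.80), JUND (-0.67), TNFRSF11B (-0.41), HLA-DPB1 (-0.35), KRT17 (-0.21), HLA-DRB1 (-0.061), LGR4 (-0.046) and MIR4707 (-0.00031). None was reversed by the other pseudocounts or scalings or without the filter, nor any of the 84 that passed the filter at 5 FPKM. Removal of the GC and length trend and of overlapping genes was not run for single genes.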

Other observations

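Further families were picked out after their values were seen, so their direction supports nothing. The 5 tested SPANX gene symbols, sperm proteins encoded on the X chromosome, were all at least 2-fold lower in LM2. SPANXA1 was at 96.0 FPKM in BM1 control and 2.67 FPKM in LM2 control, SPANXA2 at 86.1 and 2.73 FPKM, and SPANXB1 at 205 and 38.9 FPKM. These genes are close copies and their separate values are uncertain. Of 5 tested cystatin genes, which encode secreted inhibitors of cysteine proteases, CST1 (107 and 0.718 FPKM) and CST2 (21.8 and 0.869 FPKM) were lower in LM2. CST3, the widely expressed cystatin C, was at 221 and 136 FPKM. In the knockdowns CST1 was at 8.17 and 0.145 FPKM.

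A set of 5 genes known from secretory epithelia, picked in the same way, was lower in LM2. SPDEF, a transcription factor of goblet cells, was at 19.3 and 0.867 FPKM. The trefoil factor TFF2 was at 11.9 and 0.229 FPKM, and TFF3 at 8.03 and 0.287 FPKM. AGR2, a disulfide isomerase of mucus-secreting cells, was at 11.3 and 0.518 FPKM, and VAMP8, a protein of regulated exocytosis, at 135 and 16.1 FPKM. All 5 were also at least 2-fold lower in LM2 in the knockdowns. Other epithelial genes did not all share this direction. Of the 11 tested genes of the epithelial list, 3 were lower in the LM2 control and 1, KRT7, was higher (22.3 and 142 FPKM). MUC1, below the filter, was at 0.207 and 0.893 FPKM.

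Of 14 tested HIST1 histone genes, which lie on chromosome 6, 12 were at least 2-fold lower in LM2 control than in BM1 control, led by HIST1H1C (103 and 14.5 FPKM). In the knockdowns 2 of the 14 were. Most histone messages lack a poly(A) tail, so libraries of polyadenylated RNA sample them poorly.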
